A study of Rattus norvegicus with 35 samples.

Results

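The change of gene expression between 24 and 48 h of cyclic stretch was measured directly in neonatal rat ventricular myocytes: the 5 arrays of myocytes stretched for 48 h were set against the 5 arrays stretched for 24 h, and no unstretched array entered the comparison. All probe sets of the array except its controls were compared, 31042 of 31099, on 10 of the 35 arrays of the study. Each probe set gives 1 level, from a handful of short probes against the same transcript. The study followed stretched myocytes over time in a pair of experiments, each with its own unstretched control, and the 24 and 48 h arrays belong to the later experiment with 5 biological replicates per group. All groups used here were ventricular myocytes of Sprague-Dawley rats aged 2 to 4 days, grown on collagen-coated flexible plates in serum-free medium, and the stretched groups were pulled by cyclic vacuum under the plate. Per the study's methods, the groups of a culture began their stretch at different times and ended together, so the 24 and 48 h arrays are of cells of like age in culture. Unstretched myocytes (0 h) of the same experiment are given below only as levels, as mean ± SD of log2 intensity (n = 5). A value after ± is the SD for such a level and the standard error of the fit for a log2 fold change (48 h minus 24 h, 5 arrays each).

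The cultures were enriched in myocytes by pre-plating, which leaves some other cells of the heart. All 20 measured cardiomyocyte markers had a mean log2 intensity above 6, a level taken here as dim, but markers of fibroblasts, endothelial cells and macrophages were also read. In such bulk RNA, fewer cells of a type and less RNA per cell cannot be told apart. Median intensities were 91.4 to 94.3 over the 24 h arrays and 90.4 to 92.6 over the 48 h arrays. The 24 h arrays were more scattered than the 48 h arrays, with correlations within the group of 0.9898 to 0.9978 against 0.9942 to 0.9977. The array of 24 h replicate 1 held the farthest value of its group for many genes, so results are also given without it where they rest on it. Its lowest correlation within the group, 0.9898, was the same as that of 24 h replicate 4. The log2 difference between the 3' and 5' probe sets of Gapdh, a measure of RNA integrity, ran from 0.266 to 0.953 at 24 h, highest in replicate 4, and from 0.24 to 0.628 at 48 h.

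Mechanical load makes cardiac myocytes grow. Within hours they switch on immediate early transcription factors, and later they turn to a fetal-like program in which natriuretic peptides and cytoskeletal genes rise while genes of adult energy use and calcium cycling fall. Genes of the adult program include myoglobin, the muscle creatine kinase and enzymes that burn fatty acids. Interferon-stimulated genes, by contrast, belong to the antiviral defence of nearly every cell and are switched on by interferon through factors such as Stat2, Irf9 and Irf7.

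Of the genes that changed between 24 and 48 h, most were lower at 48 h, while genes at large were balanced around no change. Of the 31042 probe sets, 1593 (5.13%) passed an adjusted p of 0.05 in limma (Benjamini-Hochberg), 475 of them higher (1.53%) and 1118 lower (3.6%) at 48 h. Changes of at least 1.5-fold were called in 300 probe sets (0.966%), 55 higher (0.177%) and 245 lower (0.789%), a share higher of 18.3% (exact 95% interval 14.1 to 23.2). Changes of at least 2-fold were called in 35 (0.113%), 6 higher (0.0193%) and 29 lower (0.0934%). In 272 of the 300 probe sets the 24 and 48 h arrays did not overlap, against 825 probe sets (2.66%) not overlapping and higher and 1402 (4.52%) not overlapping and lower over the whole array. Since the 300 were called on these same arrays, their separation is largely built into the call and is no further support. Counted by gene, with the brightest probe set standing for each of 14217 genes, 1014 passed (7.13%), 303 higher (2.13%) and 711 lower (5.0%). Of these genes 202 changed at least 1.5-fold (1.42%), 34 higher (0.239%) and 168 lower (1.18%), and 24 at least 2-fold (0.169%), 2 higher (0.0141%) and 22 lower (0.155%). The groups did not overlap in 522 genes higher (3.67%) and 920 genes lower (6.47%), and 3210 genes (22.6%) had an unadjusted p under 0.05, as did 5525 probe sets (17.8%). The median log2 fold change over all genes was 0.007, and 6741 of them had a negative one. Without 24 h replicate 1 there were 1063 calls, 235 at 1.5-fold with a share higher of 13.2%, and 31 at 2-fold. Without 24 h replicate 3 or 48 h replicates 1, 3 or 5 the calls at any fold fell to 1051, 1013, 1010 and 1021. The plot of change by level sets these calls beside all other probe sets.

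**Figure D1:**
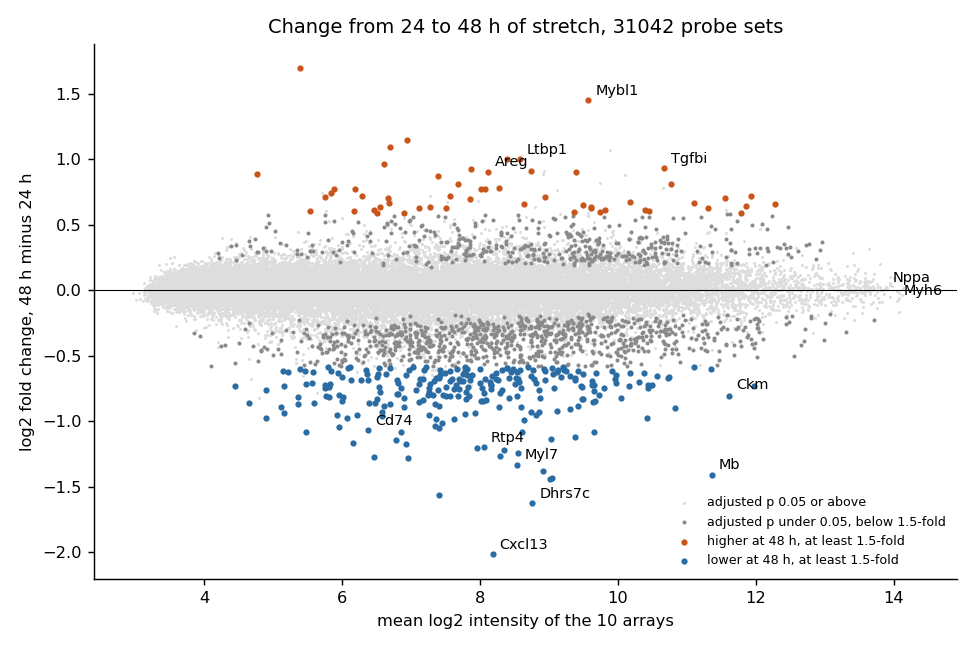
Log2 fold change from 24 to 48 h of stretch (y axis) against the mean log2 intensity of the 10 arrays (x axis), 1 point per probe set. Coloured points passed an adjusted p of 0.05 and 1.5-fold, 55 higher (orange) and 245 lower (blue), and the falls reach further than the rises.

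Several muscle genes were among the 15 largest falls, beside the immune genes described further on. Myoglobin (Mb), the oxygen store of red muscle, read 12.0, 11.88, 12.3, 11.99 and 12.15 on the 24 h arrays and 10.53, 10.7, 10.5, 10.64 and 10.89 on the 48 h arrays (log2 intensity, replicates 1 to 5). All 5 arrays at 48 h lay below all 5 at 24 h. It was 2.66-fold lower (log2 fold change -1.41 ± 0.092, adjusted p = 3.56e-05), from an unstretched level of 12.22 ± 0.13. Muscle creatine kinase (Ckm), which regenerates ATP beside the myofibrils, read 12.07, 11.99, 12.03, 12.06 and 11.94 at 24 h and 11.18, 11.19, 11.2, 11.24 and 11.25 at 48 h. The groups did not overlap, and the 48 h arrays were the lower ones. Ckm was 1.75-fold lower (log2 fold change -0.8 ± 0.047, adjusted p = 3.07e-05), with unstretched myocytes at 12.36 ± 0.03. The atrial regulatory myosin light chain (Myl7), present in neonatal ventricles, read 9.41, 9.09, 9.11, 9.32 and 9.12 at 24 h and 7.86, 7.87, 7.7, 7.86 and 8.08 at 48 h. Every 48 h array was below every 24 h array. It was 2.52-fold lower (log2 fold change -1.33 ± 0.084, adjusted p = 3.56e-05), with unstretched myocytes at 9.78 ± 0.09.

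Of 17 measured genes of the thick and thin filaments 4 fell and none rose (23.5% lower, against 5.0% lower and 2.13% higher over all genes, and a median log2 fold change of -0.081, against 0.007 over all genes). They were Myl7, the atrial essential light chain Myl4 (log2 fold change -0.97, adjusted p = 0.0106), slow skeletal troponin T (Tnnt1, -0.98, adjusted p = 0.0478) and slow skeletal troponin I (Tnni1, -0.39, adjusted p = 0.0026), all isoforms that the heart uses early in life or only in part. The Tnnt1 call is lost without any 1 array other than 24 h replicate 1, and the other members kept theirs. No filament gene passed as higher in limma, with 2 higher at an unadjusted p under 0.05 and 0 in the one-way analysis of variance. Among 18 genes of the Z-disc, M-band and titin system 4 fell (22.2%, against 5.0% of all genes; Myom2, Myoz1, Myom1 and Ldb3) and desmin (Des, 0.31, adjusted p = 0.0427) rose. Of the falls, the M-band protein myomesin 2 (Myom2) was 2.37-fold lower (log2 fold change -1.24 ± 0.166, adjusted p = 0.00196). The Des call did not hold without 8 of the 10 arrays, those other than 24 h replicates 2 and 4, and Ldb3 was lost without 6 (24 h replicates 1, 2 and 3 and 48 h replicates 1, 3 and 5).

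Of 22 measured genes of calcium handling 9 fell, 13 did not pass and none rose in limma (40.9% lower against 5.0% over all genes, median -0.182), with 12 lower and 2 higher at an unadjusted p under 0.05 and 12 lower and 0 higher in the one-way analysis. Without 48 h replicate 1 the count was 5. The largest fall was in Dhrs7c, a reductase of the sarcoplasmic reticulum, which read 10.42, 9.35, 9.56, 9.43 and 9.1 at 24 h and 7.73, 8.04, 7.73, 7.74 and 8.49 at 48 h. The highest 48 h array, at 8.49, stayed below the lowest 24 h array, at 9.1. It was 3.09-fold lower (log2 fold change -1.63 ± 0.225, adjusted p = 0.00238), from 10.81 ± 0.14 in unstretched cells. The histidine-rich calcium binding protein Hrc, which sits in the reticulum lumen, was 1.62-fold lower (log2 fold change -0.7 ± 0.11, adjusted p = 0.00443), and S100a1, a calcium sensor that enhances pump and release channel, was 1.39-fold lower (log2 fold change -0.47 ± 0.069, adjusted p = 0.0031). The T-type calcium channel Cacna1g was 1.32-fold lower (log2 fold change -0.4 ± 0.083, adjusted p = 0.017), and Cacna1h 1.67-fold lower (log2 fold change -0.74 ± 0.139, adjusted p = 0.0102), the latter by its brighter probe set only, since a dimmer one gave 0.06. Atp2a2, which encodes the SERCA2 pump that returns calcium to the reticulum, read 13.92, 13.8, 13.81, 13.78 and 13.81 at 24 h and 13.55, 13.6, 13.63, 13.56 and 13.65 at 48 h. All 5 arrays at 48 h lay below all 5 at 24 h. It was 1.17-fold lower (log2 fold change -0.22 ± 0.049, adjusted p = 0.0221), a call lost without 48 h replicate 1.

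Of 19 ion channel genes 5 fell and none rose in limma (26.3% lower against 5.0% over all genes, median -0.111, with 8 lower and 0 higher at an unadjusted p under 0.05 and 4 lower and 0 higher in the one-way analysis), and 3 fell without 48 h replicate 1 or 3. Kcnh2, the rapid delayed rectifier, was 1.56-fold lower (log2 fold change -0.64 ± 0.104, adjusted p = 0.00488), Kcnq1, the slow delayed rectifier, 1.26-fold lower (log2 fold change -0.33 ± 0.065, adjusted p = 0.0142), and Abcc9, the sulphonylurea subunit of the ATP-sensitive potassium channel, 1.29-fold lower (log2 fold change -0.37 ± 0.071, adjusted p = 0.0116). The other called members were the potassium channel subunit Kcnip2 (-0.86, adjusted p = 0.0227, lost without 48 h replicates 1 or 3) and the sodium channel subunit Scn4b (-0.67, adjusted p = 0.0437, lost without any array but 48 h replicate 4).

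**Figure D2:**
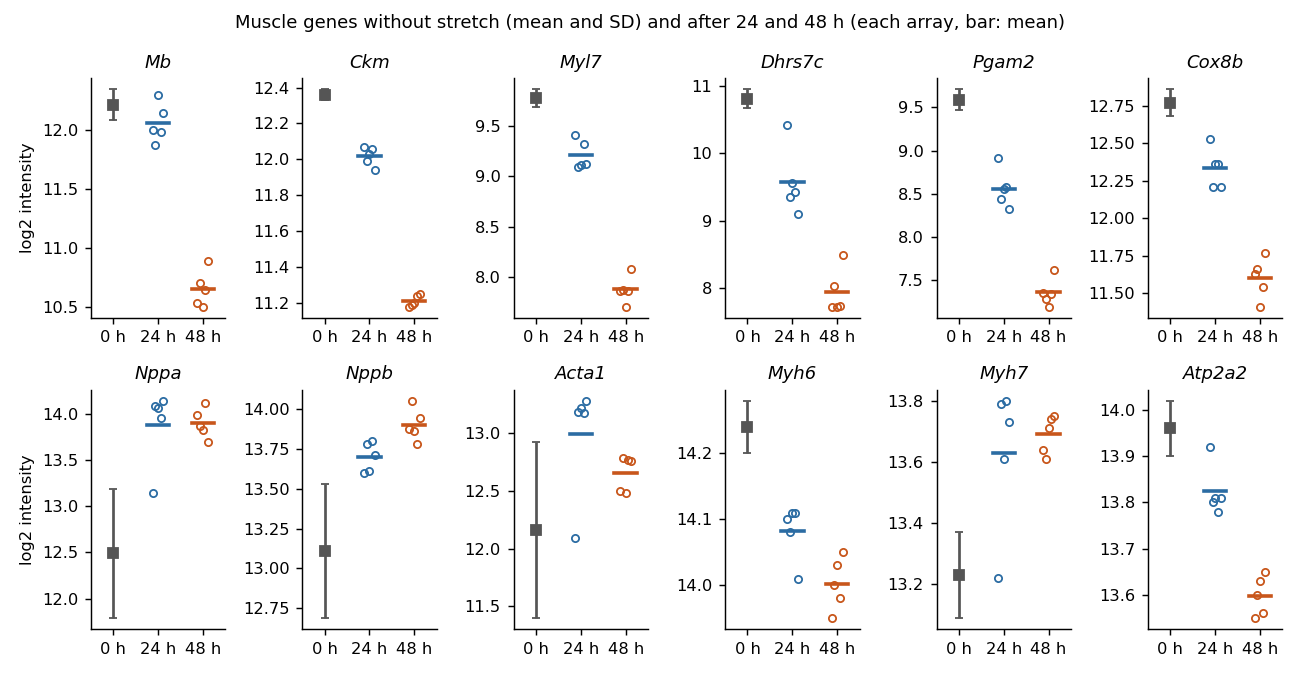
Log2 intensity (y axis) of 12 muscle genes in unstretched myocytes (grey square with SD, n = 5) and on each array after 24 h (blue) and 48 h (orange) of stretch, with bars at the group means. The 48 h arrays of Mb, Ckm, Myl7, Dhrs7c, Pgam2 and Cox8b lie below all their 24 h arrays, while those of Nppa, Nppb, Acta1, Myh6 and Myh7 overlap.

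The markers by which hypertrophy is usually followed did not keep this pattern. The natriuretic peptide genes Nppa and Nppb, secreted by strained myocytes, had log2 fold changes of 0.02 (standard error 0.169, adjusted p = 0.968) and 0.2 (0.065, adjusted p = 0.111). Nppa read 13.14, 14.08, 14.06, 13.95 and 14.14 at 24 h and 13.99, 13.87, 13.82, 14.11 and 13.69 at 48 h, so that 24 h replicate 1 lay far below the other arrays of its group. Without that array the Nppa difference was -0.16, and without 48 h replicate 4 it was -0.03. Skeletal alpha-actin (Acta1) gave -0.33 (adjusted p = 0.436) with the same 24 h array lowest, at 12.09 against 13.17 to 13.28 on the others. Without it Acta1 passed as lower (-0.56, adjusted p = 0.00442). The myosin heavy chains Myh6 (-0.08, adjusted p = 0.405) and Myh7 (0.06, adjusted p = 0.824, and -0.04 without 24 h replicate 1) did not pass either. In the list of 18 hypertrophy markers Rcan1 and Tnfrsf12a rose and Mlf1 fell (11.1% higher and 5.56% lower, against 2.13% and 5.0% over all genes, median 0.077). At an unadjusted p under 0.05 there were 6 higher and 1 lower. The one-way analysis of variance called 0 higher and 1 lower, and limma with the unstretched arrays in the fit called 0 higher. The calcineurin inhibitor Rcan1 was 1.4-fold higher (log2 fold change 0.48 ± 0.09, adjusted p = 0.0103), and the myeloid leukemia factor Mlf1 was 1.52-fold lower (log2 fold change -0.6 ± 0.066, adjusted p = 0.000713). Tnfrsf12a, the TWEAK receptor (0.58, adjusted p = 0.0291), was lost without any array but 24 h replicate 4 or 48 h replicate 4.

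Genes of energy metabolism that changed were mostly lower at 48 h, though most of them did not pass. Of 26 measured glycolysis and glycogen genes 5 fell and 1 rose (19.2% lower and 3.85% higher, against 5.0% and 2.13% over all genes, median -0.01). Pgam2, the muscle phosphoglycerate mutase, read 8.91, 8.44, 8.55, 8.58 and 8.32 at 24 h and 7.35, 7.28, 7.19, 7.34 and 7.62 at 48 h. The groups did not overlap, and the 48 h arrays were the lower ones. It was 2.3-fold lower (log2 fold change -1.2 ± 0.109, adjusted p = 0.000304), from 9.59 ± 0.12 without stretch. The muscle enolase Eno3 was 1.62-fold lower (log2 fold change -0.7 ± 0.086, adjusted p = 0.00126), and the muscle phosphofructokinase Pfkm 1.4-fold lower (log2 fold change -0.48 ± 0.076, adjusted p = 0.00448), whereas the platelet phosphofructokinase Pfkp was 1.28-fold higher (log2 fold change 0.35 ± 0.065, adjusted p = 0.0097). Aldolase C (Aldoc, -0.64) and the heart lactate dehydrogenase subunit Ldhb (-0.38) also fell, and all 6 of these calls held without any 1 array. Of 8 creatine and myoglobin genes 4 fell (median -0.281): Mb, Ckm, the creatine-making methyltransferase Gamt (-0.68) and the mitochondrial creatine kinase Ckmt2 (-0.48).

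Of 25 fatty acid oxidation genes all 25 had a negative log2 fold change (median -0.177), and 5 passed the test, 1 in 5 against 5.0% of all genes. Hadh, the hydroxyacyl-CoA dehydrogenase of beta-oxidation, was 1.65-fold lower (log2 fold change -0.73 ± 0.133, adjusted p = 0.00926) by its bright probe set, with 0.08 by a dim one. Etfb, the electron transfer flavoprotein subunit, was 1.22-fold lower (log2 fold change -0.29 ± 0.054, adjusted p = 0.0105). The count rested on single arrays: it was 2 without 24 h replicate 3 or 48 h replicates 2 or 3, and 3 without 48 h replicates 1, 4 or 5. Of 30 subunits of oxidative phosphorylation 4 fell (13.3% against 5.0% over all genes, median -0.086), led by the muscle cytochrome oxidase subunit Cox8b, which was 1.66-fold lower (log2 fold change -0.73 ± 0.08, adjusted p = 0.000713). That count was 2 without 48 h replicates 1, 3 or 5, and 10 in the one-way analysis of variance. Among 16 regulators of this metabolism Rxrg, Klf15 and Ppargc1a fell and Esrra rose. Retinoid X receptor gamma (Rxrg) was 2.43-fold lower (log2 fold change -1.28 ± 0.162, adjusted p = 0.00143) by the brighter of 2 probe sets, while the dim one gave 0.07. Klf15, a glucocorticoid-responsive factor that holds back growth, was 1.79-fold lower (log2 fold change -0.84 ± 0.098, adjusted p = 0.000933) by the brightest of 3 probe sets, the others reaching 0.01. Ppargc1a, the PGC-1 alpha coactivator of mitochondrial genes, gave -0.38 (adjusted p = 0.0293) and was lost without 24 h replicates 1, 2, 3 or 5 or 48 h replicate 1, and the Esrra call (0.25, adjusted p = 0.0468) held only without 24 h replicate 4 or 48 h replicate 4.

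Interferon-stimulated genes had the lowest median of the lists examined here, with and without 24 h replicate 1. Of 32 measured, 21 passed as lower and none as higher (65.6% lower against 5.0% over all genes), and the median log2 fold change was -0.485. In limma 26 were lower and 0 higher at an unadjusted p under 0.05, and the one-way analysis of variance called 18 lower and 0 higher. On 24 h replicate 1, 17 of the 21 had their highest 24 h level. Without that array 15 passed with a median of -0.44, a smaller share than the 9 of 15 endothelial markers and 4 of 8 creatine and myoglobin genes called lower in that fit, and 13 passed without every array in turn. Rtp4, a chaperone of membrane receptors that interferon induces, read 8.96, 8.43, 8.82, 8.43 and 8.61 at 24 h and 7.56, 6.98, 7.15, 7.6 and 7.97 at 48 h. Every 48 h array was below every 24 h array. It was 2.29-fold lower (log2 fold change -1.2 ± 0.172, adjusted p = 0.00278), with unstretched myocytes at 9.92 ± 0.15. Usp18, which removes ISG15 from proteins and damps the interferon receptor, read 9.7, 9.04, 9.11, 9.04 and 9.13 at 24 h and 8.39, 7.78, 8.31, 8.08 and 8.77 at 48 h. The highest 48 h array, at 8.77, stayed below the lowest 24 h array, at 9.04. It was 1.91-fold lower (log2 fold change -0.93 ± 0.174, adjusted p = 0.0102), from 10.4 ± 0.2 without stretch. Of the factors that drive such genes, Irf7 read 10.58, 10.06, 10.12, 9.81 and 10.07 at 24 h and 9.33, 9.18, 9.23, 9.1 and 9.79 at 48 h and was 1.74-fold lower (log2 fold change -0.8 ± 0.149, adjusted p = 0.01), Stat2 was 1.39-fold lower (log2 fold change -0.47 ± 0.069, adjusted p = 0.00302), and Irf9 1.37-fold lower (log2 fold change -0.45 ± 0.074, adjusted p = 0.00548). The RNA-cutting pathway enzyme Oas1a (-1.02), the GTPases Igtp (-0.86) and Gbp2 (-0.51), the RNA sensor Dhx58 (-0.64) and the virus tether Bst2 (-0.56) fell too. Ifit1, Ifit3, Mx1, Ifih1, Cxcl10 and Herc6 did not pass, with log2 fold changes between -0.21 and 0.01 and mean log2 intensities at 24 h of 5.07 to 7.61. Mx2, Oas1b, Oasl, Ifi27 and Cmpk2 missed the threshold with differences of -0.76 to -0.21 (adjusted p from 0.0536 to 0.091).

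**Figure D3:**
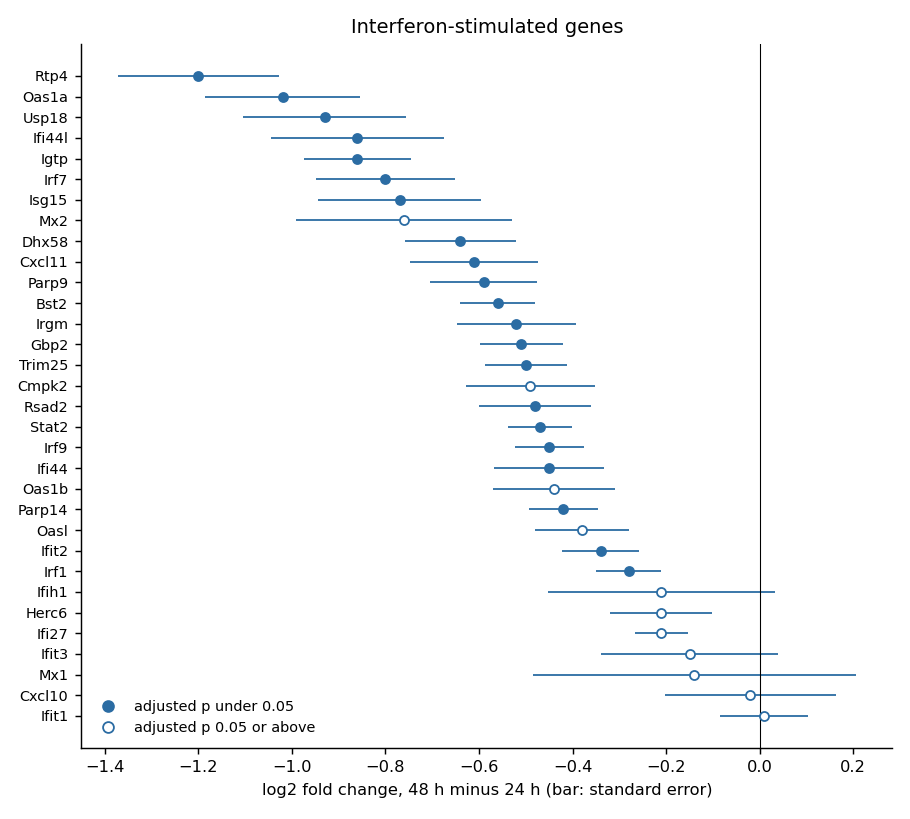
Log2 fold change from 24 to 48 h of stretch (x axis, bars are standard errors) for the 32 measured interferon-stimulated genes (y axis). Filled points passed an adjusted p of 0.05, 21 of 32, and all of them lie below 0.

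The interferon-stimulated response element is bound by Irf and Stat factors, so the promoters of members of this group were searched on both strands for its half-site GAAA repeated after a gap of 2 bases, in windows from 250 bases before to 50 bases after the start of transcription (RefSeq, rat build GRCr8). Windows were at hand for 16 of the 21 genes that fell, and 10 of them (62.5%) held a match, as did 15 of 25 measured members of the list and 1312 of all 33469 windows (3.92%). Since the list was drawn up from genes known to answer to interferon, this describes its members and not the fall. Windows were at hand for 28 of 36 genes that fell on the filament, Z-disc, calcium, ion channel, creatine, glycolysis and fatty acid lists, and none held one. Oxidative phosphorylation subunits and the metabolic regulators were not in this set. The muscle factor MEF2's letters CTA and TAG, 4 bases apart, were in 2 of those 28 (7.14%, Ckmt2 and Ldb3) and in 1284 of all windows (3.84%). Capitals mark the matches. The windows of Oas1a (chr12:41330216-41330515), Igtp (chr10:42874797-42875096) and Isg20 (chr1:142239809-142240108) lie on the plus strand, and those of Irf7 (chr1:205799974-205800273) and Bst2 (chr16:18254918-18255217) on the minus strand. Isg20 is shown because it is an interferon-inducible exonuclease with a match that rose:
Oas1a: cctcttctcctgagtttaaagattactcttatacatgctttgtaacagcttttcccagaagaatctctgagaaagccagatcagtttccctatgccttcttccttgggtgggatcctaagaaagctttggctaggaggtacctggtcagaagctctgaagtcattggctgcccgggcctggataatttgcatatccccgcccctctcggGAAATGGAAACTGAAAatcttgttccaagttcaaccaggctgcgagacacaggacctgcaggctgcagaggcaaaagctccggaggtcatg
Igtp: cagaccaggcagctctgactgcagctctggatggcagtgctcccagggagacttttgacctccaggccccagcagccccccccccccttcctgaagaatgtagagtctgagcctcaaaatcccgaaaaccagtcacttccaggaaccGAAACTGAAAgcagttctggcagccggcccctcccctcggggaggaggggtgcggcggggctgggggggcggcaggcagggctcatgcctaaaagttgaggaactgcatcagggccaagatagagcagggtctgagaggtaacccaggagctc
Irf7: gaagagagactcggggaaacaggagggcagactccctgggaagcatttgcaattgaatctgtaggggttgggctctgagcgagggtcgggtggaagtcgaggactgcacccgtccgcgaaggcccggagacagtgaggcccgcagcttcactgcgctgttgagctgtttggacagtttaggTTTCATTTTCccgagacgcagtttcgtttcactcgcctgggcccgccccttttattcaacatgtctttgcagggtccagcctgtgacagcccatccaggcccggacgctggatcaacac
Bst2: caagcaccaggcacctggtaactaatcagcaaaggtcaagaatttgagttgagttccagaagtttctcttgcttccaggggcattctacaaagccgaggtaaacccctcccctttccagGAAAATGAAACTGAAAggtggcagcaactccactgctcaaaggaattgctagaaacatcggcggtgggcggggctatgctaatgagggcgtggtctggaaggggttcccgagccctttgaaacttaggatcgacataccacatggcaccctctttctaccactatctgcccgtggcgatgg
Isg20: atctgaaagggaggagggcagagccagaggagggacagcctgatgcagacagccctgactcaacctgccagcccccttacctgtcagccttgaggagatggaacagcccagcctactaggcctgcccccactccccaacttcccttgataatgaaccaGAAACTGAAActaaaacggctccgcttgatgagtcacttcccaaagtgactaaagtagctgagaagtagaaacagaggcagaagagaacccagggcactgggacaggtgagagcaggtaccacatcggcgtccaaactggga
The Oas1a and Bst2 windows hold 2 overlapping matches each, and the Igtp, Irf7 and Isg20 windows 1 each, the one of Irf7 on the opposite strand. Isg20 read 7.05, 7.1, 7.31, 7.36 and 7.51 at 24 h and 7.94, 8.09, 8.22, 7.85 and 8.3 at 48 h. All 5 arrays at 48 h lay above all 5 at 24 h. It was 1.76-fold higher (log2 fold change 0.81 ± 0.106, adjusted p = 0.00167), and unstretched myocytes had 7.21 ± 0.18, close to the 24 h level. Isg20 was not on the list of 32.

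Other immune genes fell with the interferon group. The B cell chemokine Cxcl13 had the largest fall of any named gene and read 9.62, 8.69, 9.49, 8.93 and 9.23 at 24 h and 7.18, 6.76, 7.12, 7.33 and 7.48 at 48 h. The groups did not overlap, and the 48 h arrays were the lower ones. It was 4.05-fold lower (log2 fold change -2.02 ± 0.177, adjusted p = 0.000292), and lay at 10.76 ± 0.23 without stretch. Of 15 antigen presentation genes 3 fell (median -0.118): the class II invariant chain Cd74 was 2.1-fold lower (log2 fold change -1.07 ± 0.086, adjusted p = 0.000161), and the immunoproteasome subunits Psmb9 and Psmb8 gave -0.41 and -0.36. Of 30 NF-kB and inflammatory genes 5 fell (Vcam1, C3, Il1b, Il1a and Bcl3) and 1 rose (16.7% lower and 3.33% higher, against 5.0% and 2.13% over all genes, median -0.151). The Bcl3 call was lost without 48 h replicate 3. The adhesion molecule Vcam1 was 1.68-fold lower (log2 fold change -0.75 ± 0.118, adjusted p = 0.00443), complement C3 1.65-fold lower (log2 fold change -0.72 ± 0.126, adjusted p = 0.00705), and interleukin-1 beta (Il1b) 1.46-fold lower (log2 fold change -0.55 ± 0.064, adjusted p = 0.000933). The gene that rose was Il1rl1, the receptor of interleukin-33, which read 9.56, 9.97, 9.66, 10.11 and 9.92 at 24 h and 10.59, 10.78, 10.26, 10.3 and 10.65 at 48 h. Every 48 h array was above every 24 h array. It was 1.6-fold higher (log2 fold change 0.68 ± 0.124, adjusted p = 0.00957), with 8.53 ± 0.27 in unstretched cells. RT1-T24-3, a class I histocompatibility gene with close relatives that the probes may share, gave -1.22 (adjusted p = 0.00299).

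Markers of macrophages and of endothelial cells were lower at 48 h as well. Of 18 macrophage markers 7 fell and none rose in limma (38.9% lower against 5.0% over all genes, median -0.268), with 12 lower and 0 higher at an unadjusted p under 0.05 and 7 lower in the one-way analysis. Their summed intensity was 6810 to 7416 on the 24 h arrays and 4584 to 5602 on the 48 h arrays. The F4/80 antigen Adgre1 read 10.32, 10.43, 10.43, 10.59 and 10.37 at 24 h and 9.85, 9.81, 9.57, 9.89 and 10.1 at 48 h. The highest 48 h array, at 10.1, stayed below the lowest 24 h array, at 10.32. It was 1.5-fold lower (log2 fold change -0.58 ± 0.088, adjusted p = 0.00347), and lysozyme (Lyz2, -0.45), the Fc receptor chain Fcer1g (-0.52) and the mannose receptor Mrc1 (-0.48) fell beside it. Of 15 endothelial markers 8 fell and none rose (53.3% lower against 5.0% over all genes, median -0.339), with 11 lower and 0 higher at an unadjusted p under 0.05 and 7 lower in the one-way analysis. Their sums were 6023 to 6805 at 24 h and 4872 to 5229 at 48 h. The sialomucin endomucin (Emcn) was 1.46-fold lower (log2 fold change -0.55 ± 0.058, adjusted p = 0.000604), the tight junction protein Cldn5 1.53-fold lower (log2 fold change -0.61 ± 0.091, adjusted p = 0.00319), the factor Sox18 1.43-fold lower (log2 fold change -0.51 ± 0.061, adjusted p = 0.000986), and the receptor Tie1 1.39-fold lower (log2 fold change -0.47 ± 0.061, adjusted p = 0.00154). No marker on either list was at 0, but Cd163, C1qa, C1qb, C1qc and Cx3cr1 of the macrophage list and Flt1 and Vwf of the endothelial list had mean log2 intensities under 6. The part of these cells in the fall of immune and interferon-stimulated genes was not tested.

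In the other marker lists, to be set against 5.0% lower and 2.13% higher over all genes, the calls were few. Of 18 fibroblast markers 3 fell (16.7%, Fbln1, Pdgfra and Dpt, from -0.43 to -0.33, median of the list -0.125), with sums of 98340 to 101900 at 24 h and 89670 to 99580 at 48 h. Of 20 cardiomyocyte markers 4 fell (Mb, Myl7, Lrrc10 and Myl4, median -0.093), with 8 in the one-way analysis, and their sums were 150600 to 159200 and then 142600 to 149200. Lrrc10, a protein of the Z-disc region found in heart muscle, was 2.12-fold lower (log2 fold change -1.09 ± 0.2, adjusted p = 0.00971). Smooth muscle and pericyte markers gave 2 higher and 2 lower of 15 (13.3% each). The higher ones, Cspg4 and Des, both lost their calls without 24 h replicates 1, 3 or 5 or 48 h replicates 1, 2, 3 or 5, and of the lower ones Rgs5 was lost without 24 h replicates 1, 2, 3 or 5 or 48 h replicates 1, 3 or 5, while Abcc9 held. Of 6 erythroid markers only Hbb fell (16.7% of the list, -0.76, adjusted p = 0.0349) and kept its call only without 24 h replicate 4 or 48 h replicate 3. A pair of globin probe sets that the annotation ties to no single gene, and that a table of the study names HBB and Hba1/Hba2, gave -1.56 (2.96-fold lower, adjusted p = 0.0156) and -1.44 (2.71-fold lower, adjusted p = 0.0135), and both calls held without any 1 array. For both, 24 h replicate 4 was the lowest 24 h array (7.44 and 8.82) and overlapped the 48 h arrays. Limma called none of 11 mesothelial and 7 Schwann cell markers, of which 0 and 1 passed an unadjusted p of 0.05 and 0 the one-way analysis.

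The rises were fewer, and several were of genes for secreted or matrix proteins. The largest was Mybl1, a transcription factor of the Myb family, which read 8.44, 8.92, 8.71, 9.16 and 9.0 at 24 h and 10.29, 10.66, 10.11, 10.06 and 10.36 at 48 h. All 5 arrays at 48 h lay above all 5 at 24 h. It was 2.73-fold higher (log2 fold change 1.45 ± 0.14, adjusted p = 0.000346), with unstretched myocytes at 7.58 ± 0.14. Ltbp1, the matrix protein that binds latent TGF-beta, read 7.47, 8.18, 8.11, 8.37 and 8.24 at 24 h and 9.22, 9.03, 8.92, 9.2 and 9.01 at 48 h. The groups did not overlap, and the 48 h arrays were the higher ones. It was 2.0-fold higher (log2 fold change 1.0 ± 0.143, adjusted p = 0.00269), and stood at 7.55 ± 0.21 without stretch. Tgfbi, an adhesion protein that TGF-beta induces, was 1.91-fold higher (log2 fold change 0.93 ± 0.156, adjusted p = 0.00571), with 24 h arrays at 9.82 to 10.69 and 48 h arrays at 10.83 to 11.38. Areg, the amphiregulin ligand of the EGF receptor, read 7.59, 7.81, 7.43, 7.85 and 7.63 at 24 h and 8.57, 8.89, 8.45, 8.07 and 8.86 at 48 h. Every 48 h array was above every 24 h array. It was 1.87-fold higher (log2 fold change 0.91 ± 0.144, adjusted p = 0.00448), from 6.14 ± 0.18 without stretch. Tinagl1, a matricellular protein, was 1.87-fold higher (log2 fold change 0.91 ± 0.137, adjusted p = 0.00351), the lipase Abhd2 1.9-fold higher (log2 fold change 0.93 ± 0.136, adjusted p = 0.00302), the cadherin Cdh17 1.83-fold higher (log2 fold change 0.87 ± 0.135, adjusted p = 0.004), and Plcd4, a phospholipase C, 1.64-fold higher (log2 fold change 0.72 ± 0.097, adjusted p = 0.00219). Mustn1, a small nuclear protein of muscle, was 1.64-fold higher (log2 fold change 0.71 ± 0.145, adjusted p = 0.0157), with overlapping groups. Pxdc1 (0.9), the chemokine Ccl27 (0.77) and the histone H4 gene Hist4h4 (0.88), whose probes may read its near-identical copies, rose too. The deubiquitinase Uchl1 and the bradykinin receptor Bdkrb2 rank among the 15 largest rises, at 0.69 (adjusted p = 0.0369) and 0.78 (adjusted p = 0.0327), but each call was lost without 7 of the 10 arrays: both without 24 h replicates 1 or 3 or 48 h replicates 1 or 3, Uchl1 also without 24 h replicates 2 or 4 or 48 h replicate 4, and Bdkrb2 also without 24 h replicate 5 or 48 h replicates 2 or 5. Of probe sets that the array annotation gives no single gene but a table of the study names, LOC102554639 was 2.21-fold higher (log2 fold change 1.15 ± 0.231, adjusted p = 0.015), GSTA1, a glutathione transferase, 2.0-fold higher (log2 fold change 1.0 ± 0.083, adjusted p = 0.000187), KRT80, a keratin, 1.67-fold higher (log2 fold change 0.74 ± 0.116, adjusted p = 0.00433), and CREB5, a CREB family factor, 1.64-fold higher (log2 fold change 0.71 ± 0.141, adjusted p = 0.0134).

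**Figure D4:**
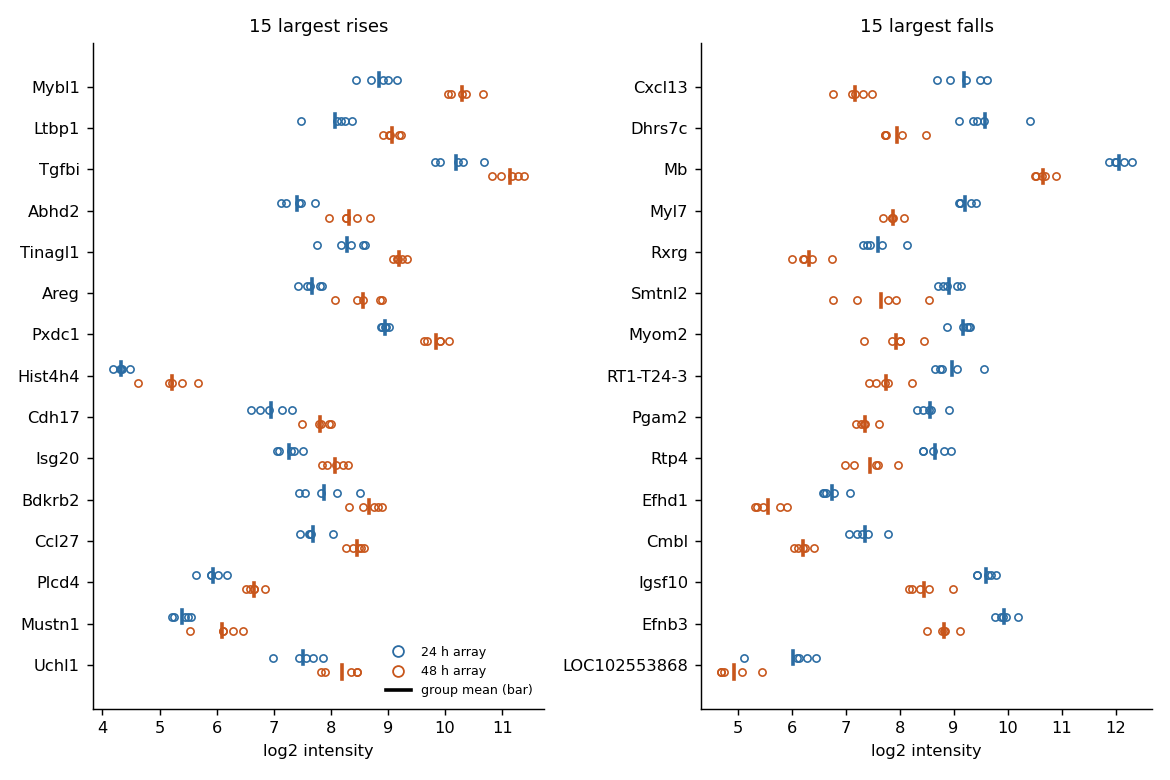
Log2 intensity (x axis) of the 15 genes with the largest rises (left) and the 15 with the largest falls (right) from 24 h (blue) to 48 h (orange) of stretch, 1 circle per array and a bar at each group mean. The groups overlap only in Bdkrb2, Mustn1, Uchl1 and LOC102553868.

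The remaining large falls were of genes with varied roles. Smtnl2, a smoothelin-like protein, was 2.41-fold lower (log2 fold change -1.27 ± 0.261, adjusted p = 0.0165), with 48 h arrays spread from 6.77 to 8.54. Efhd1, a calcium-binding protein of mitochondria, was 2.25-fold lower (log2 fold change -1.17 ± 0.131, adjusted p = 0.000812), the hydrolase Cmbl 2.22-fold lower (log2 fold change -1.15 ± 0.121, adjusted p = 0.000604), the immunoglobulin superfamily member Igsf10 2.2-fold lower (log2 fold change -1.14 ± 0.14, adjusted p = 0.00123), and the ephrin ligand Efnb3 2.18-fold lower (log2 fold change -1.12 ± 0.108, adjusted p = 0.000346). The uncharacterised LOC102553868 (-1.09, adjusted p = 0.0193) was lost without 24 h replicate 3 or 48 h replicates 3 or 5. Among probe sets named by the study's tables, beside the globin ones above, LOC100912003 was 2.72-fold lower (log2 fold change -1.44 ± 0.176, adjusted p = 0.00118). C4A/C4B, complement component 4, was 1.81-fold lower (log2 fold change -0.85 ± 0.084, adjusted p = 0.000406), and BCHE, butyrylcholinesterase, 1.76-fold lower (log2 fold change -0.82 ± 0.111, adjusted p = 0.00212).

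Growth factor systems shifted in both directions. Of 28 TGF-beta and BMP family genes 4 rose and none fell (14.3% higher against 2.13% over all genes, median 0.15), with 10 higher and 1 lower at an unadjusted p under 0.05 and 4 higher in the one-way analysis. Tgfb2, a TGF-beta ligand, read 10.28, 10.98, 10.62, 11.05 and 10.9 at 24 h and 11.42, 11.56, 11.35, 11.28 and 11.55 at 48 h. The lowest 48 h array, at 11.28, stayed above the highest 24 h array, at 11.05. It was 1.58-fold higher (log2 fold change 0.66 ± 0.131, adjusted p = 0.0135), from 9.52 ± 0.52 without stretch, and the BMP target Id1 was 1.29-fold higher (log2 fold change 0.36 ± 0.059, adjusted p = 0.00468). The feedback inhibitors Smad7 (0.41, adjusted p = 0.0247) and Skil (0.26, adjusted p = 0.0232) were lost without several arrays: the list counted 2 without 24 h replicates 1 or 3 or 48 h replicates 1 or 5, and 7 without 24 h replicate 4 or 48 h replicate 4. Tgfb3, Inhba and Id4 had log2 fold changes of 0.88, 0.6 and 0.58 that did not pass (adjusted p = 0.0593, 0.0534 and 0.081). Of 17 YAP target genes 2 rose (Areg and Tgfb2, median 0.153) and none fell, with 8 higher and 0 lower at an unadjusted p under 0.05.

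On the IGF list, which also holds stanniocalcin (Stc1), not itself an IGF gene, 4 of 13 fell and none rose in limma (30.8% lower against 5.0% over all genes, median -0.13). At an unadjusted p under 0.05 there were 5 lower and 0 higher. Igfbp3, which carries IGF and limits its action, was 1.89-fold lower (log2 fold change -0.92 ± 0.131, adjusted p = 0.00261), Igf1 1.41-fold lower (log2 fold change -0.49 ± 0.071, adjusted p = 0.0027), Igf2 1.52-fold lower (log2 fold change -0.6 ± 0.073, adjusted p = 0.00114), and stanniocalcin (Stc1) 1.27-fold lower (log2 fold change -0.35 ± 0.071, adjusted p = 0.0164). Igf2 fell by its brightest probe set, while the other 3, all dim, gave 0.05 to 0.13. The list of 19 genes of the angiotensin, endothelin and natriuretic peptide systems also holds the bradykinin receptor Bdkrb2 and receptor partners for adrenomedullin. On it Bdkrb2 and Ramp3 rose and Agtr1a and Ramp2 fell (10.5% higher and 10.5% lower, against 2.13% and 5.0% over all genes, median 0.01). The Bdkrb2 call was lost without 7 of the 10 arrays. The angiotensin receptor Agtr1a read 9.69, 9.14, 9.25, 9.16 and 9.2 at 24 h and 8.6, 8.57, 8.09, 8.82 and 8.23 at 48 h. All 5 arrays at 48 h lay below all 5 at 24 h. It was 1.77-fold lower (log2 fold change -0.83 ± 0.144, adjusted p = 0.00731), from 10.53 ± 0.1 without stretch. Of the receptor partners that tune the response to adrenomedullin, Ramp2 was 1.41-fold lower (log2 fold change -0.49 ± 0.079, adjusted p = 0.00455) and Ramp3 1.53-fold higher (log2 fold change 0.61 ± 0.127, adjusted p = 0.0166).

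Calls among matrix genes were few and went both ways, and are set against 2.13% higher and 5.0% lower over all genes. Of 27 collagen and collagen-processing genes 3 rose (Col12a1, P4ha1 and Plod2, 11.1%) and 1 fell (Col15a1, -0.31, 3.7%), with a median of 0.004. The prolyl hydroxylase P4ha1 was 1.24-fold higher (log2 fold change 0.31 ± 0.055, adjusted p = 0.00827). Col12a1 (0.56, adjusted p = 0.033) and Plod2 (0.19, adjusted p = 0.0234) were both lost without 24 h replicates 3 or 5 or 48 h replicates 1, 3 or 5, and Col12a1 also without 48 h replicates 2 or 4. Of 31 other matrix genes Ltbp1 rose (3.23%) and Fmod, Fbln1, Thbs2 and Nid2 fell (12.9%, median -0.112). The collagen-binding proteoglycan fibromodulin (Fmod) was 1.65-fold lower (log2 fold change -0.72 ± 0.133, adjusted p = 0.0097). Of 25 matrix proteases and inhibitors Mmp16 rose (0.49, adjusted p = 0.0131) and 4 fell, among them the gelatinase Mmp9, which was 1.6-fold lower (log2 fold change -0.68 ± 0.083, adjusted p = 0.00126), and the membrane protease Mmp14 (-0.38). Mmp11 (-0.31, adjusted p = 0.0352) was lost without 24 h replicates 1, 2, 4 or 5 or 48 h replicates 1, 2 or 5, and Adamts9 (-0.41) held, though a dimmer probe set pointed the other way.

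Actin cytoskeleton and biosynthetic lists leaned higher with few calls. They are to be set against 2.13% higher and 5.0% lower over all genes, of which 22.6% had an unadjusted p under 0.05 in either direction. Of 27 SRF and actin cytoskeleton genes 3 rose (Actn1, Tpm4 and Actn4) and the myosin light chain Myl9 fell (11.1% higher and 3.7% lower, median 0.119). At an unadjusted p under 0.05 there were 10 higher and 2 lower, and the one-way analysis called 2 higher and 1 lower. The tropomyosin Tpm4 was 1.25-fold higher (log2 fold change 0.32 ± 0.061, adjusted p = 0.0108), and only it remained among the rises without 24 h replicate 3 or 48 h replicates 1 or 5. All 39 ribosome biogenesis genes had a positive log2 fold change (median 0.171), while 6741 of all 14217 genes had a negative one. Of the 39, 5 rose (12.8%, Rrp12, Ebna1bp2, Polr1c, Nhp2 and Nop16), and 15 were higher at an unadjusted p under 0.05. Their count was 1 without 24 h replicate 3, 2 without 24 h replicates 1 or 5 or 48 h replicates 1, 2, 3 or 5, and 8 without 48 h replicate 4, and Polr1c, a subunit of RNA polymerases I and III, held throughout (0.28, adjusted p = 0.0125). Of 19 cholesterol synthesis genes Msmo1 and Sqle rose (10.5%, median 0.155), and the Sqle call held only without 24 h replicate 5. With the replicate number as a block in the fit, the ribosome and cholesterol lists had 0 genes called higher and the SRF and actin list 1. Msmo1, the methylsterol oxidase, was 1.25-fold higher (log2 fold change 0.33 ± 0.065, adjusted p = 0.014).

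Apart from chaperones of the endoplasmic reticulum, stress and growth-control lists held few calls. Limma called none of 22 immediate early genes, 20 heat shock genes and 27 proteasome subunits. At an unadjusted p under 0.05 there were 2, 4 and 2, all higher, and the one-way analysis called 0, 2 and 0. Fos, the classic immediate early gene, had a log2 fold change of -0.06 (standard error 0.197), and Fosl1 one of 0.47 (standard error 0.188, adjusted p = 0.207). Of 23 chaperones of the endoplasmic reticulum 5 fell (Herpud1, Pdia4, Hyou1, Calr and Manf, median -0.116), 21.7% against 5.0% lower over all genes. The count was 1 without 24 h replicate 5 or 48 h replicates 3 or 5, 2 without 24 h replicates 3 or 4 or 48 h replicate 2, and 3 without 24 h replicate 2 or 48 h replicate 1. With the replicate number as a block it was 0. Herpud1, of the degradation machinery of that compartment, was 1.32-fold lower (log2 fold change -0.4 ± 0.078, adjusted p = 0.0127). Of 25 ATF4 targets Trib3 fell (4.0% of the list, near the 5.0% of all genes). Its call (-0.25, adjusted p = 0.034) was lost without any array but 24 h replicate 1 or 48 h replicate 2. Of the next lists no more than 1 gene fell (3.7%, 2.63% and 6.67% lower, near the 5.0% of all genes). Of 27 Nrf2 targets the efflux pump Abcc4 fell (-0.37, adjusted p = 0.00571), of 38 cell cycle genes E2f1 fell (-0.34, adjusted p = 0.0175), and of 15 D-type cyclins and CDK inhibitors Cdkn1c fell (-0.47, adjusted p = 0.00702) and Cdkn1a rose (0.47, adjusted p = 0.0401), the last lost without 24 h replicates 1, 3 or 5 or 48 h replicates 1, 3, 4 or 5.

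The clock, atrophy and apoptosis lists closed the survey, and are set against 5.0% lower and 2.13% higher over all genes. Of 18 clock genes Tef fell (5.56%, near the share of all genes), with 5 higher and 5 lower at an unadjusted p under 0.05. The Tef call (-0.37, adjusted p = 0.0299) was lost without any 24 h array or 48 h replicates 1 or 5. Of 17 FoxO and atrophy genes 3 fell (17.6%, Klf15, Pik3ip1 and Sesn1, median -0.071), of which Sesn1 was lost without 24 h replicates 1, 2, 3 or 5 or 48 h replicate 5. Of 18 apoptosis regulators Bcl2l11 and Bik fell (11.1%, median 0.075). Bcl2l11, the pro-apoptotic protein BIM, read 9.99, 9.79, 10.01, 9.63 and 9.85 at 24 h and 9.16, 8.88, 9.27, 9.39 and 8.87 at 48 h. The groups did not overlap, and the 48 h arrays were the lower ones. By the brightest of 3 probe sets, of which the least changed gave -0.02, it was 1.67-fold lower (log2 fold change -0.74 ± 0.11, adjusted p = 0.00321), from 10.65 ± 0.11 without stretch, while Bik (-0.27, adjusted p = 0.0297) was lost without 24 h replicates 1, 2 or 4 or 48 h replicates 1, 2 or 5. Over the 42 lists, 834 different genes were measured, of which 30 rose and 122 fell. Among all 14217 genes 303 rose (2.13%) and 711 fell (5.0%).

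**Figure D5:**
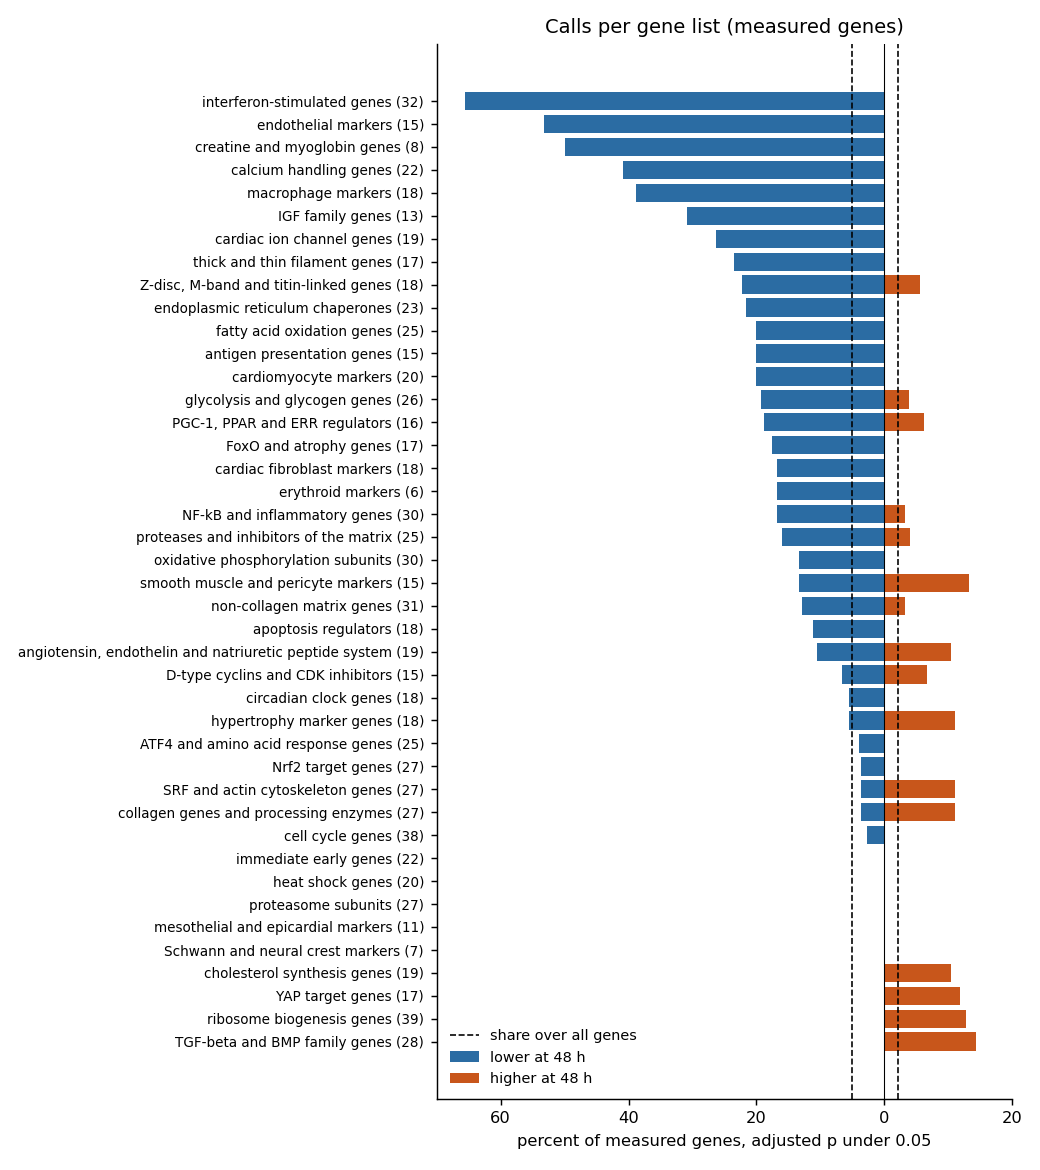
Percent of the measured genes of each list (number in parentheses) that passed an adjusted p of 0.05, lower at 48 h to the left (blue) and higher to the right (orange). Dashed lines mark the shares over all 14217 genes, 5.0% lower and 2.13% higher, and the interferon-stimulated genes lie farthest out at 65.6% lower.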

How the data were processed

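RNA of neonatal rat ventricular myocytes was read on Affymetrix Rat Genome arrays. The intensities deposited by the authors had been background-corrected, quantile-normalized and summarised per probe set by RMA, and were on the linear scale, so log2 was taken here. In 107 cells of the 10 arrays (98 probe sets) a spreadsheet had turned a value into a date number. These were restored (to 8.5646 to 12.9664), and 89 lay within the range of the other arrays. Another 44 whole-number cells were kept as intensities. Depth is not defined for arrays, and precision rests on 5 arrays per group.

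The 48 h arrays were compared with the 24 h arrays in limma 3.58.1 (R 4.3.3; lmFit, eBayes, two-sided, Benjamini-Hochberg over 31042 probe sets) at an adjusted p of 0.05, with 1.5-fold and 2-fold as added thresholds. Other steps used Python 3.11.15, pandas 2.3.3 and numpy 2.4.6. The annotation of the array gave 20826 probe sets 1 gene, 436 several and 9780 none, and 20758 of the first were matched by gene ID to RefSeq. The brightest probe set stood for each gene. Named genes were the 15 largest rises and falls among called genes past 1.5-fold with all 5 arrays at 48 h on 1 side of the 24 h mean. That filter favours groups that do not overlap, so their separation is partly built in. Also named were up to 4 called members of each list with the largest change, and any called member against the direction of most. Further called members are named where a count of 5 or fewer is given or a list is broken down. Nppa, Nppb, Acta1, Myh6, Myh7 and Atp2a2 were named whatever their change. Probe sets without a single gene are named only where a table of the study names them. Members and lists were chosen with earlier results of these data known. Replicates are called biological in the study, but p-values measure only the spread between these arrays.

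On simulated data of 31042 probe sets, the same test recovered 19 of 50 changes of 1.25-fold, 43 of 50 of 1.5-fold, 50 of 50 of 2-fold and 50 of 50 of 3-fold, with 7 false calls. Only these probe sets were changed, and noise was drawn independently for each probe set and array. The data held more changes and arrays that stood apart, so these counts do not carry over to them. Deviations from the group means of same-numbered 24 and 48 h arrays correlated at 0.1995, -0.207, -0.247, -0.2137 and -0.1612. Those of same-numbered unstretched and 24 h arrays correlated at 0.161, 0.1736, 0.5389, 0.5213 and 0.0352. For unstretched and 48 h arrays the values were -0.0415, -0.0807, -0.3927, 0.1019 and -0.1295. Whether replicate numbers mark a shared culture is thus not settled, and the main fit left them out. Alternatives comprised 11 settings, each array left out in turn, and 1 setting added after seeing the data. The authors' own fold changes and p-values were not used. Some genes are not reported here.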

Additional observations from a re-analysis of the deposited data

Results flagged for a closer look

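Of 324 groups of 5 arrays tested over named genes, 24 held an array far from the other 4 (Dixon's test at the 95% level), and chance flags about 1 in 20 groups. Most were of 24 h replicate 1. In log2 intensity that array was the lowest of its group for Ltbp1 (7.47), Myom2 (8.87), LOC102553868 (5.11), Col12a1 (8.37), Nppa (13.14) and Acta1 (12.09). It was the highest of its group for the channel subunits Scn4b (9.17) and Kcnh2 (8.25), the complex I subunit Ndufa9 (12.26), the interferon-stimulated genes Oas1a (8.48) and Usp18 (9.7), C3 (10.34), Mmp9 (8.21), Agtr1a (9.69) and Atp2a2 (13.92), and for probe sets that a table of the study names RGS6 (9.0) and PDE7B (7.74).

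Other arrays stood apart for single genes. At 24 h, Mlf1 was highest in replicate 3 (11.81) and Tnfrsf12a in replicate 4 (11.68), and the globin genes Hbb (7.99) and Hba1/Hba2 (8.82) were lowest in replicate 4. At 48 h, Myl4 (10.26) and LOC103691479 (9.53) were highest in replicate 4, and Msmo1 (12.08) was lowest in replicate 2.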

How the results depend on the processing

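The 1593 probe sets past the adjusted p, the 300 at 1.5-fold, the 35 at 2-fold and the share higher of 18.3% were recomputed under 11 alternatives, 10 leave-outs and 1 setting added after seeing the data. The replicate number as a block (replicate block), a pairing that the check above did not settle, gave 802 calls, 265 at 1.5-fold and 32 at 2-fold, and 51 of 140 named genes lost their call. The mean of all probe sets of a gene gave 162 at 1.5-fold and 21 at 2-fold, over fewer features. The Gapdh 3' to 5' difference as a covariate, the added setting, gave 2484 calls, and the cause was not tested. Under the other settings the calls numbered 1411 to 1897 and the share higher 15.7% to 22.3%. Leaving out 1 array gave 1010 (without 48 h replicate 3) to 1628 calls (without 48 h replicate 4), 235 to 363 at 1.5-fold, 31 to 52 at 2-fold and shares of 13.2% (without 24 h replicate 1) to 23.3% (without 24 h replicate 4). The direction of 2 named genes that did not pass turned: Nppa was -0.06 with array weights, -0.16 without 24 h replicate 1 and -0.03 without 48 h replicate 4, and Myh7 was -0.04 without 24 h replicate 1. Over the leave-outs Nppa ranged from -0.16 to 0.09 and Myh7 from -0.04 to 0.1. Each leave-out cost 11 to 33 named genes their call. In simulated data, where far fewer probe sets changed, most changes of 1.25-fold were missed. That limit does not carry over to the data, where smaller changes were called, such as Atp2a2 (1.17-fold lower).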
